A study of Homo sapiens with 2 samples.

Results

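The genes described here make, break down, move and sense prostaglandins, the local lipid signals that cells make from arachidonic acid. They are the 10 genes PLA2G4A, PTGS1, PTGS2, PTGES, PTGES2, SLCO2A1, HPGD, PTGR1, PTGER2 and PTGER4, and the set was selected on the log2 differences between these 2 arrays, which were known when it was drawn up. Every probe set that names 1 of these genes in the platform annotation was taken, which gave 21 of the 47693 probe sets in the table and 10 of the 18392 genes that could be named. No probe set names a member together with another gene. A probe set is a group of short probes that reads the same transcript, and its signal is given here on the log2 scale.

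The question of the study was the effect of fluphenazine in prostate cancer that no longer needs androgen. PC3 cells, a human prostate cancer line grown out of a metastasis in bone, were given 10 µM fluphenazine or its solvent DMSO. Fluphenazine is a phenothiazine antipsychotic that blocks dopamine receptors. There was 1 array of total RNA for each treatment, both from cells grown with serum, and the labels do not say how long the drug was left on. PC3 is a single established line, so the arrays stand for 1 genetic background. A single array for each condition leaves the variation between cultures unmeasured. No p-value or standard error was therefore computed, and every difference below sets 1 array against 1 other.

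Prostaglandin synthesis starts when the cytosolic phospholipase PLA2G4A frees arachidonic acid from membranes. The cyclooxygenases PTGS1, usually constitutive, and PTGS2, usually induced by growth factors and inflammatory signals, turn it into an unstable intermediate. Synthases such as PTGES then convert that intermediate into prostaglandin E2. Breakdown runs the other way: the transporter SLCO2A1 takes prostaglandins into the cell, HPGD oxidises and so inactivates them, and PTGR1 reduces the product further. PTGER2 and PTGER4 encode the receptors EP2 and EP4, which answer prostaglandin E2 by raising cyclic AMP. In epithelial tumours high PTGS2 and low HPGD are a well-known pairing.

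The results turn on HPGD, which stood apart from the other members at 1 of its 4 probe sets. PTGS2 and PTGES, the usual inducible pair on the synthetic side, are set beside it, although their differences were small. The 250 bases before the annotated start of these 3 genes are therefore shown, to set the promoter of the breakdown enzyme beside those of the inducible synthetic enzymes. They come from RefSeq on GRCh38.p14, 5′ to 3′ on the gene's own strand, which is the minus strand for all 3. Capitals mark matches to 7 motifs searched on both strands: the TATA box TATAAA, the cyclic AMP response half-site TGACG, a kappa-B type site (GGGA, any 4 bases, CC), a C/EBP type site TTGCGNAA, the Snail type E-box CAGGTG, the GC box GGGCGG and the EGR1 site GCGTGGGCG. The regions are chr4:174522489-174522738 for HPGD, chr1:186680424-186680673 for PTGS2 and chr9:129753043-129753292 for PTGES.
HPGD: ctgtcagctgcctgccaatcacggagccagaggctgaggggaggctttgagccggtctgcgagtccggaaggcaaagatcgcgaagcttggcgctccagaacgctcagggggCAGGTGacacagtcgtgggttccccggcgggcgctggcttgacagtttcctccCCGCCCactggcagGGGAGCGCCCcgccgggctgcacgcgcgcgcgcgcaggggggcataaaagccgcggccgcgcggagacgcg
PTGS2: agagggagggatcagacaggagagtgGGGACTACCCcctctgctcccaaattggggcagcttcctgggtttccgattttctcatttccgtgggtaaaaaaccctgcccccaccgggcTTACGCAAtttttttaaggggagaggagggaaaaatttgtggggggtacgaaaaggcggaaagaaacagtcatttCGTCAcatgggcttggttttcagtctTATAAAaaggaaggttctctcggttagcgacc
PTGES: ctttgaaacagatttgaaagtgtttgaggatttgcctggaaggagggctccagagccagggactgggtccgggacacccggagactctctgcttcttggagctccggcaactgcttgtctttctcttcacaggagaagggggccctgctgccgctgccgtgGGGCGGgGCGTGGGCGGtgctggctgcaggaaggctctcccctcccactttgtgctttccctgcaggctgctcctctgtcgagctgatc

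The HPGD window held 1 Snail type E-box starting 138 bases before the start site, 1 GC box at 85 bases and 1 kappa-B type match at 71 bases. RefSeq lists 2 start windows for HPGD. The other one, which is not shown, held a cyclic AMP half-site starting 77 bases before its own start site. The PTGS2 window held a kappa-B type match at 224 bases, a C/EBP type match at 133 bases, a cyclic AMP half-site at 58 bases and a TATA box at 32 bases before the start. PTGS2 is a classic inducible promoter that is known to use sites of these kinds. The PTGES window held GC boxes at 89 and 78 bases and an EGR1 site at 82 bases, which overlaps the nearer GC box, and EGR1 is known to drive PTGES. Over all 35116 RefSeq windows of this length, the E-box was present in 17.5%, the GC box in 42.6%, the kappa-B type letters in 22.6%, the half-site in 21.2% and the TATA box in 10.7%. The C/EBP type letters were rarer, at 0.752%, as was the EGR1 site, at 0.72%. A match describes the letters and shows no binding.

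A probe set was said to reach the floor when the higher of its 2 values was at least 6.19, the median of that quantity over the brightest probe sets of all genes, those with the highest average over the arrays. This floor is a rank and not a detection call. Of the 21 member probe sets 11 reached it, and by their brightest probe set 7 of the 10 genes did. The exceptions were PTGS1, SLCO2A1 and PTGER2. The 2 arrays shared nearly one distribution of values, with medians over all probe sets of 4.73 on the fluphenazine array and 4.74 on the DMSO array. Of the genes listed as markers of PC3 or of epithelial lineage, KRT8, KRT18, KRT19, KRT7, EPCAM, CDH1 and VIM reached the floor and KRT5 did not. Of these 7, 2 were higher and 5 lower with fluphenazine, with VIM at -0.48 and KRT8 at -0.42. Of the markers of other cells, none of 3 measured leukocyte genes, 1 of 3 endothelial genes (PECAM1) and 1 of 5 fibroblast genes (COL1A1) reached it. Both lay well above it, PECAM1 at 8.49 with fluphenazine and 8.76 with DMSO, and COL1A1 at 8.33 on both arrays. Of the prostate luminal genes that PC3 is known to express little, 3 of 6 measured reached it: KLK3 at 6.90 with fluphenazine and 6.93 with DMSO, TMPRSS2 at 7.11 with fluphenazine and 6.99 with DMSO, and HOXB13 at 7.27 with fluphenazine and 7.53 with DMSO. Bacterial poly-A transcripts added to the RNA before labelling were lower with fluphenazine at 24 of 24 probe sets, with a median log2 difference of -0.22, while genes that reached the floor had a median difference of -0.01.

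**Figure D1:**
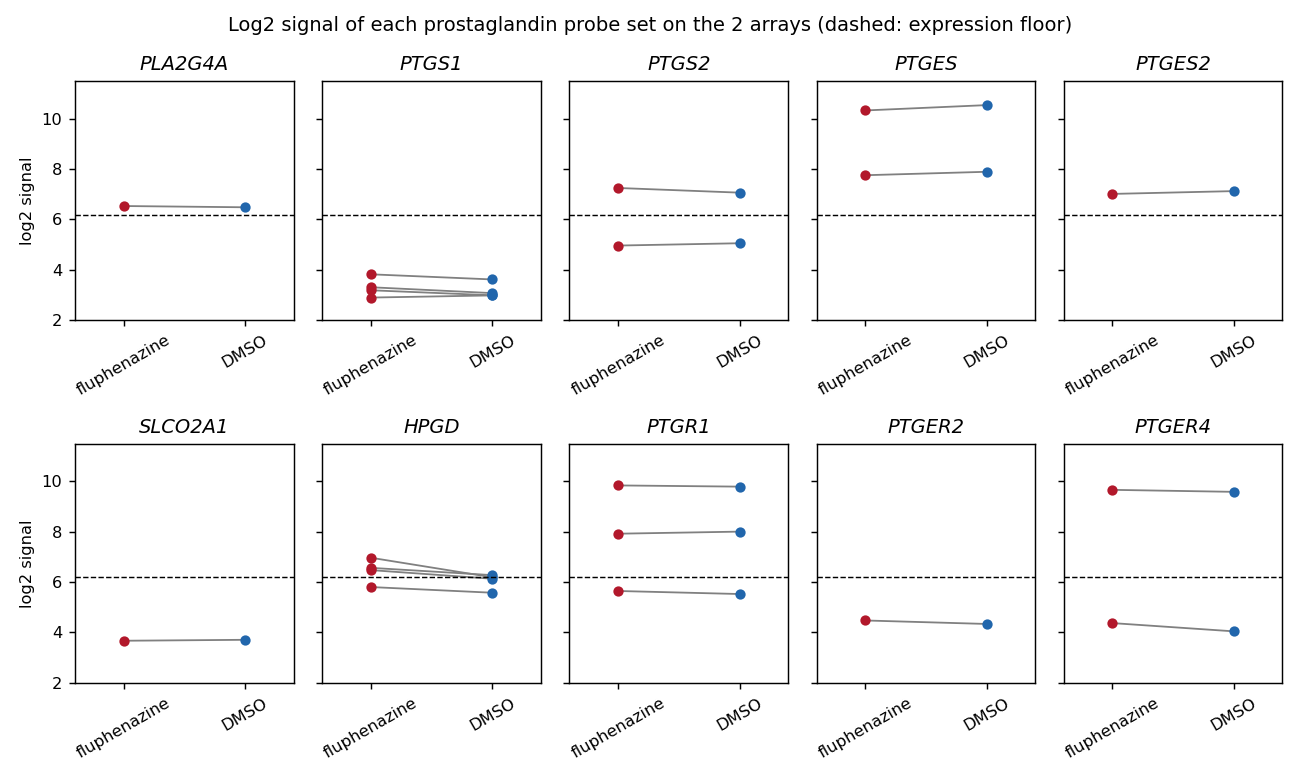
Log2 signal (vertical axis) of each of the 21 member probe sets on the fluphenazine array (red, left) and the DMSO array (blue, right), 1 panel per gene, with a line joining the values of a probe set and a dashed line at the floor of 6.19. The line of HPGD 203913_s_at slopes the most, and all PTGS1 values lie far under the floor.

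HPGD, the enzyme that inactivates prostaglandin E2, had the largest difference of the 10 genes. All 4 of its probe sets were higher with fluphenazine. The brightest when both arrays are averaged, 203913_s_at, had a log2 signal of 6.97 with fluphenazine, against 6.19 with DMSO, a difference of 0.78 or 1.71-fold. Its DMSO value lay just under the floor, so it reached the floor through the fluphenazine array alone. Probe set 203914_x_at read 6.57 with fluphenazine and 6.28 with DMSO, a difference of 0.29, and it was the brightest of the 4 on the DMSO array. Probe set 211548_s_at read 6.48 with fluphenazine and 6.13 with DMSO, a difference of 0.34, and it too reached the floor with fluphenazine alone. The dimmest, 211549_s_at, stayed under the floor at 5.80 with fluphenazine and 5.58 with DMSO, a difference of 0.23. The 4 probe sets thus had one direction and unequal sizes, and their mean difference was 0.41 (SD 0.25 over probe sets of 1 gene, which are not replicates). The suffix of 203914_x_at marks a design that may also catch other transcripts. In RNA of a whole culture, more transcript per cell and more cells that hold it cannot be told apart.

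The size for HPGD rests on 1 probe set. Among the 3853 probe sets whose mean level lay within 0.5 of that of 203913_s_at, the central 95% of differences ran from -0.38 to 0.36, and 203913_s_at lay above that range. The other 3 HPGD probe sets lay inside the corresponding ranges for their own levels, with upper ends of 0.37, 0.38 and 0.42. With the second brightest probe set in place of the brightest, HPGD would be at 0.29. The choice of 203913_s_at as the brightest probe set, and its passing the floor, both depended on its fluphenazine value, so its size is given as a description.

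How probe sets of a gene go together elsewhere on these arrays gives a scale for the pattern. Of the 2341 genes with at least 4 probe sets, 185, or 7.9%, had all of them higher with fluphenazine. In 5 of them, or 0.214%, every probe set was at least as high as the lowest of HPGD (0.23). Besides HPGD these were the kinase-anchoring protein AKAP12 (0.37 to 0.58), the NAD-synthesis enzyme NAMPT (0.29 to 0.48), the actin nucleator SPIRE1 (0.27 to 0.42) and the transcription factor NFATC2 (0.23 to 0.41). These 4 genes were named after their values were seen. Since HPGD itself set this limit, nothing is read from the count.

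PTGR1, the reductase that acts after HPGD, differed little and in no single direction. Its brightest probe set, 231897_at, read 9.84 with fluphenazine and 9.80 with DMSO, a difference of 0.05. Probe set 228824_s_at read 7.92 with fluphenazine and 8.01 with DMSO, a difference of -0.08. The dimmer 228825_at, under the floor, read 5.65 with fluphenazine and 5.53 with DMSO, a difference of 0.12. SLCO2A1, the uptake transporter, was read by 1 probe set far under the floor, at 3.67 with fluphenazine and 3.71 with DMSO. Of the 7 probe sets for the breakdown enzymes, 6 were higher with fluphenazine, and 4 of those belong to HPGD. Only 5 of the 7 reached the floor, and 47.2% of all named probe sets that reached it were higher.

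**Figure D2:**
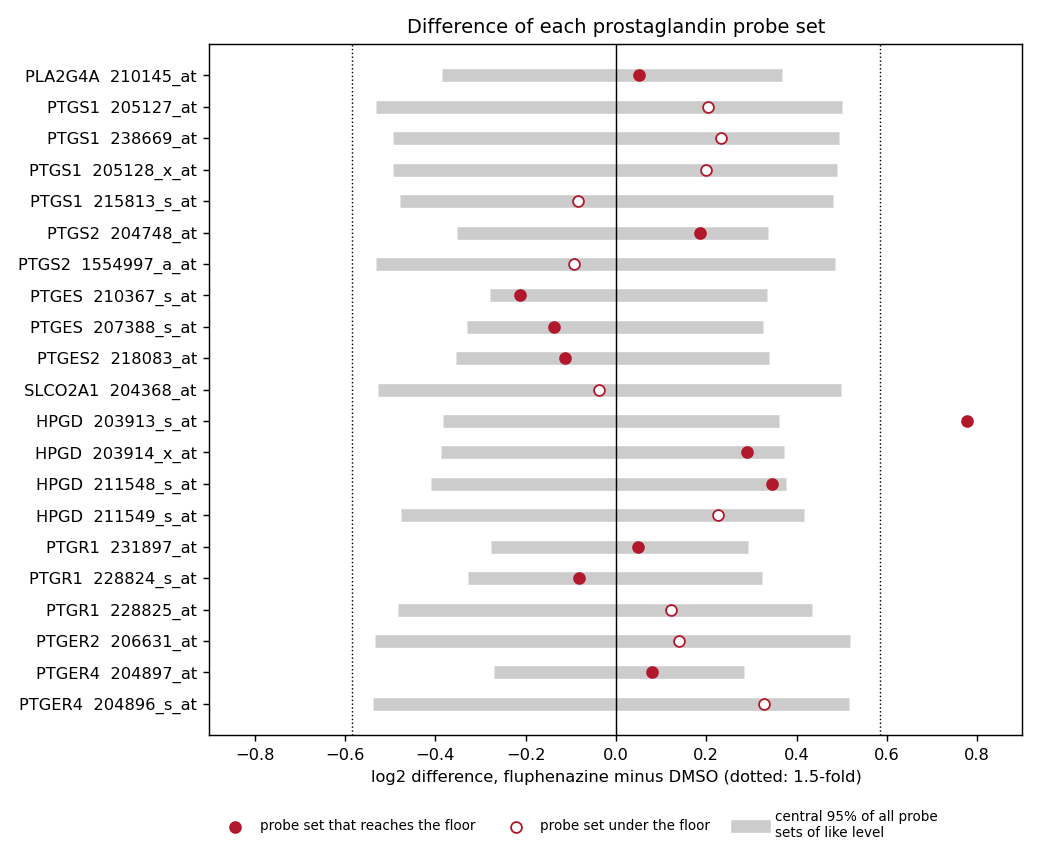
Log2 difference, fluphenazine minus DMSO (horizontal axis), of each member probe set, filled where it reached the floor and open where it did not. Grey bars span the central 95% of all probe sets within 0.5 of its mean level, and dotted lines mark 1.5-fold. Only HPGD 203913_s_at, at 0.78, lies outside its bar.

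On the synthetic side the differences were small. PTGES, the inducible microsomal prostaglandin E synthase, was lower with fluphenazine at both of its probe sets. The brighter one, 210367_s_at, read 10.33 with fluphenazine and 10.54 with DMSO, a difference of -0.21 or 1.16-fold. The other, 207388_s_at, read 7.76 with fluphenazine and 7.89 with DMSO, a difference of -0.14. PTGES2, a second membrane-associated synthase, read 7.01 with fluphenazine and 7.13 with DMSO, a difference of -0.11. All 3 synthase probe sets were therefore lower, while 47.2% of all named probe sets that reached the floor were higher. Each lay inside the central 95% of probe sets of like level, whose lower ends were -0.28, -0.33 and -0.35. These sizes are no larger than the median drop of the poly-A spike-ins on the same array, whose part in them was not tested.

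PTGS2, the inducible cyclooxygenase, was slightly higher at the probe set that reached the floor. That probe set, 204748_at, read 7.25 with fluphenazine and 7.06 with DMSO, a difference of 0.19 or 1.14-fold. The dim 1554997_a_at went the other way, at 4.96 with fluphenazine and 5.05 with DMSO, a difference of -0.09. The mean of both was 0.05, so the direction for PTGS2 rests on 1 probe set.

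PTGS1, the constitutive cyclooxygenase, stayed under the floor at all 4 probe sets on both arrays, with values from 2.89 to 3.82 with fluphenazine and 2.98 to 3.61 with DMSO. Its differences ran from -0.09 to 0.23, with 3 of 4 higher. Differences of that size are common at such levels, where the central 95% of probe sets ran from -0.53 to 0.50 around the brightest of them. PLA2G4A, which frees arachidonic acid, was read by 1 probe set at 6.53 with fluphenazine and 6.48 with DMSO, a difference of 0.05.

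The receptors were higher by small amounts at all 3 of their probe sets. PTGER4 was bright at 204897_at, with 9.67 with fluphenazine and 9.59 with DMSO, a difference of 0.08. Its other probe set, 204896_s_at, lay under the floor at 4.37 with fluphenazine and 4.04 with DMSO, a difference of 0.33. The probe sets of PTGER4 thus shared a direction but not a size. PTGER2, also under the floor, read 4.48 with fluphenazine and 4.34 with DMSO, a difference of 0.14. All 3 receptor differences lay inside the central 95% of probe sets of like level. Only 1 of the 3 reached the floor, and 47.2% of all named probe sets that reached it were higher.

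Over all members, 14 of 21 probe sets were higher and 7 lower with fluphenazine, with a median difference of 0.12. Among the 11 that reached the floor, 7 were higher and 4 lower, with a median of 0.05, while 47.2% of all 14668 named probe sets that reached the floor were higher. At 1.5-fold, 1 member probe set was higher and none was lower, against 0.314% of those 14668 probe sets higher and 0.341% lower. The members were chosen with this comparison known, so nothing is read from these shares. The 8 member probe sets outside HPGD that reached the floor ran from -0.21 to 0.19. A count of none at 1.5-fold lower comes from 1 pair of arrays with no replicate, so it does not show that these transcripts did not change.

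**Figure D3:**
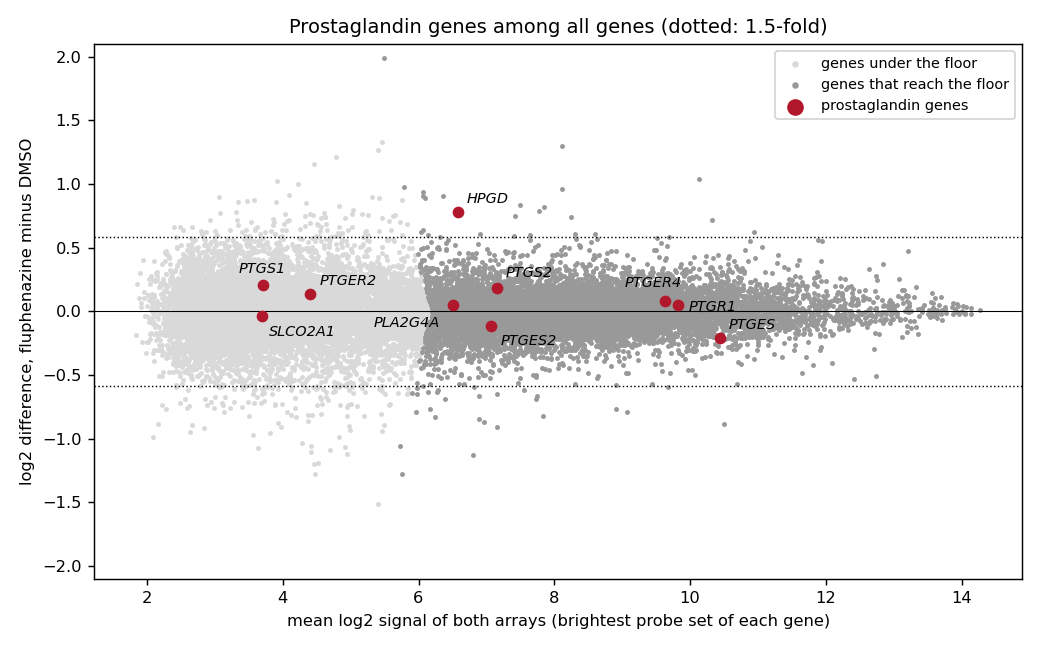
Log2 difference, fluphenazine minus DMSO (vertical axis), against the mean log2 signal of both arrays (horizontal axis) for the brightest probe set of each of 18392 genes, with the 10 members in red and dotted lines at 1.5-fold. HPGD is the only member past the dotted line, and the other 9 lie within the cloud.

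The wider pathway was described with 7 lists of 102 genes, of which 93 were measured and 53 reached the floor. Of these 53, 29 were higher and 24 lower with fluphenazine, with a median of 0.02, and 48.2% of all genes that reached the floor were higher. At 1.5-fold 3 were higher and none was lower, against 0.283% of all 9196 genes that reached the floor higher and 0.294% lower. The 3 were IL6, ATF3 and TGFB2, all of which were already known to differ when the lists were written.

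Other prostanoid synthases and reductases lay on the same side as PTGES. All 5 that reached the floor were lower, with a median of -0.21, while 48.2% of all genes that reached the floor were higher. Each of the 5 lay inside the central 95% of differences over all genes that reached the floor, -0.32 to 0.33. The carbonyl reductase CBR3 read 8.29 with fluphenazine and 8.59 with DMSO, a difference of -0.30. CBR1, which can reduce prostaglandin E2 to prostaglandin F2α, read 8.59 with fluphenazine and 8.82 with DMSO, a difference of -0.23. AKR1C3, the prostaglandin F synthase that also makes androgens, read 8.16 with fluphenazine and 8.37 with DMSO, a difference of -0.21. PRXL2B, another prostaglandin F synthase, was at -0.10 and PTGES3, a cytosolic synthase better known as the co-chaperone p23, at -0.05. AKR1C3 has close relatives in sequence, AKR1C1 and AKR1C2, which were at -0.15 and -0.17, so its probe set is uncertain. The 4 probe sets of AKR1C1 ran from -0.37 to -0.01, and the 2 of AKR1C2 differed in sign, at -0.17 and 0.11. The median of this list is close in size to the drop of the poly-A spike-ins, whose part was not tested. Synthases of other prostanoids, PTGDS, HPGDS, PTGIS and TBXAS1, were all under the floor.

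None of the other breakdown enzymes and transporters reached 1.5-fold. PTGR2 and PTGR3, further reductases of the HPGD product, were at 0.07 and -0.06, although the 7 probe sets of PTGR3 ran from -0.30 to 0.30. ABCC4, which exports prostaglandins, read 7.64 on both arrays at its brightest probe set, and its 4 probe sets ran from -0.35 to 0.01. The list had 2 members higher and 3 lower, with a median of -0.06, while 48.2% of all genes that reached the floor were higher.

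Of the 9 genes listed under other prostanoid receptors 5 reached the floor. They include the nuclear receptor PPARG, at -0.06, and PTGFRN, which is not itself a prostanoid receptor, at 0.07. The largest differences were those of PTGFR, the receptor of prostaglandin F2α, at -0.15, and PTGIR, the prostacyclin receptor, at 0.13. Each of these has a further probe set of the opposite sign, at 0.13 for PTGFR and -0.03 for PTGIR. PTGER1, which encodes EP1, was at -0.05, with its dimmer probe sets as high as 0.44, and PTGER3, which encodes EP3, was under the floor.

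Of the genes that release arachidonic acid or return it to membranes, 8 of the 11 that reached the floor were higher, with a median of 0.04. The share over all genes that reached the floor was 48.2%. Since the list mixes release with return, its direction has no single meaning. The phospholipase PLA2G6 was at 0.16 and its 3 probe sets ran from 0.16 to 0.27. ACSL4, which prefers arachidonate for activation, was at 0.17, with 3 probe sets from -0.35 to 0.17. The lysosomal phospholipase PLA2G15 was at -0.23. The lipoxygenase pathway, which competes for arachidonic acid, was barely read: only LTA4H, the leukotriene A4 hydrolase, reached the floor out of 12 measured genes, at 0.02. ALOX5, ALOX12, ALOX15 and ALOX15B were all under it.

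**Figure D4:**
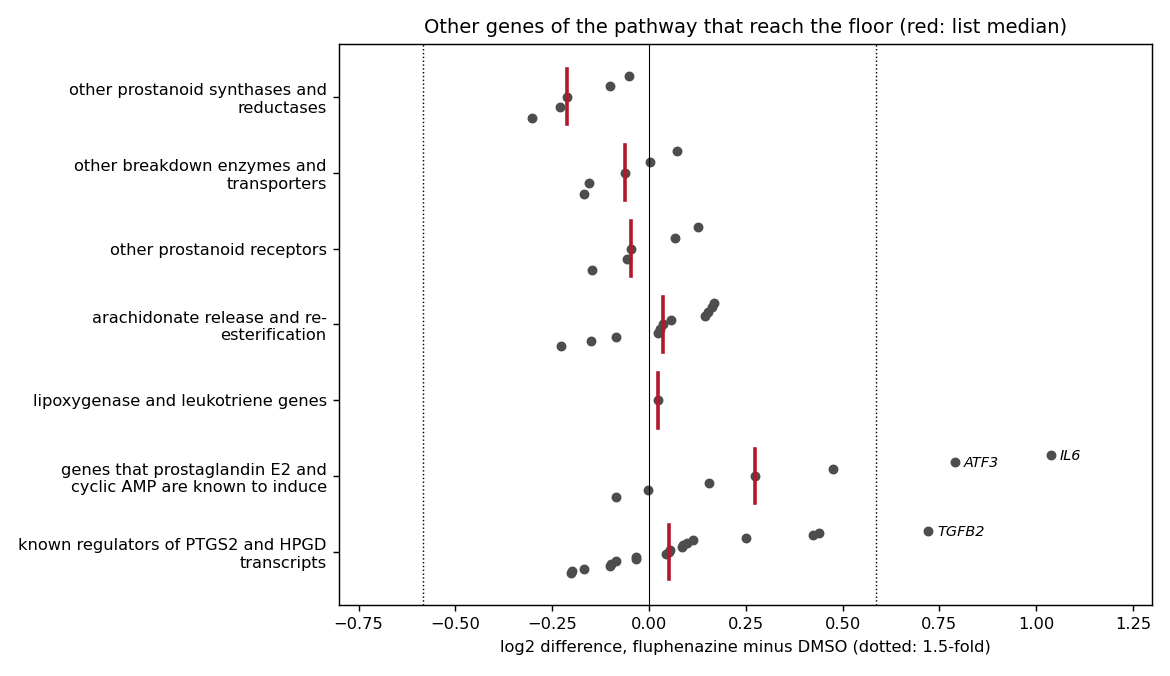
Log2 difference, fluphenazine minus DMSO (horizontal axis), of the genes of each of 7 pathway lists that reached the floor, 1 point per gene, with the list median in red and dotted lines at 1.5-fold. The 5 other synthases and reductases all lie below 0, and the 3 genes past the dotted line are IL6, ATF3 and TGFB2.

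Of the genes that prostaglandin E2 and cyclic AMP are known to induce, 5 of the 7 that reached the floor were higher, with a median of 0.27. The share over all genes that reached the floor was 48.2%. IL6 and ATF3 were already known to differ when this list was written, so nothing is read from its count or median. IL6, an inflammatory cytokine, read 10.66 with fluphenazine and 9.62 with DMSO, a difference of 1.04. ATF3, a stress-induced transcription factor, was at 0.79 by its brightest probe set, and its 3 probe sets ran from 0.14 to 0.79. The neutrophil attractant CXCL8 was at 0.48. VEGFA, the vascular growth factor, was at 0.27, with 4 probe sets from -0.04 to 0.27. CREM was at 0.00 by its brightest probe set, with 6 probe sets from -0.75 to 0.11, and the phosphodiesterase PDE4B was at -0.09, while SIK1 was at 0.15. The remaining 6 measured genes were under the floor, from FOS at -0.37 to PPARGC1A at 0.54, and the 2 probe sets of PPARGC1A ran from -0.36 to 0.54. NR4A2 was at 0.30, with 3 probe sets from -0.03 to 0.53.

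Known regulators of PTGS2 and HPGD transcripts had 11 of 19 members higher and 8 lower, with a median of 0.05. Over all genes that reached the floor, 48.2% were higher. TGFB2, a growth factor of the TGF-beta family, was at 0.72, but its 5 probe sets ran from -0.19 to 0.74. EGFR, whose signalling is known to lower HPGD in colon cancer cells, was at 0.44, with all 9 probe sets higher, from 0.04 to 0.44. IL1A, an inducer of PTGS2, was at 0.42, with its other probe set at -0.31. The NF-kB subunits NFKB1 and RELA were at 0.25 and 0.09. SNAI1 and SNAI2, which encode E-box binding repressors, were under the floor at all probe sets read, as was EGR1 at its brightest. HDAC1, HDAC2 and HDAC3 were at -0.17, -0.03 and -0.09.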

How the data were processed

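Per the submitters' processing notes, the authors worked with RMA, Affymetrix Expression Console 1.4 and Transcriptome Analysis Console 3.1, but which step each did is not recorded. For each probe set and array the authors deposited a single value, read here as log2 signal because values run from 1.60 to 14.28. No genome build is named in the sources used here. Per the labels' protocols, a whole-transcript kit labelled the RNA, whereas the probe set names are those of a 3' array, and no label explains the combination.

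The platform annotation named exactly 1 gene for 37151 probe sets, and the current RefSeq symbol was found by gene ID for 18353 of 18392 genes. Differences are fluphenazine minus DMSO. The rule for named genes took all members, with every probe set, and allowed any gene of the 7 lists with its value, beginning with the 3 of each list that differed most above the floor. Members and lists were chosen with earlier results of these data known. Python 3.11.15, pandas 2.3.3, numpy 2.4.6 and limma 3.58.1 (quantile normalization only) were used. The pooled spread and a 1.5-fold count were tried on simulated differences, with probe sets averaged by gene and no floor. The counts given here use a floor, and those of genes use the brightest probe set, so that simulation did not test them. The 2 arrays limit the precision. A few listed genes are not analysed here.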

Additional observations from a re-analysis of the deposited data

How the results depend on the processing

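The 3 other scalings of the arrays left every member value within 0.13 of the one reported. That limit is the pooled SD of probe sets of a gene over 3668 genes and contains no variation between cultures. The arrays already shared nearly one distribution, so a rescaling could move the values little. HPGD stayed higher in all alternatives. All 4 of its probe sets were higher, so no choice or average among them could have come out lower. HPGD was at 0.41 as the mean of its probe sets. It was at 0.47 as the mean of those that reached the floor, some of them through the fluphenazine array alone. It was at 0.29 by the second brightest probe set, an alternative chosen after seeing the data. That alternative put PTGS2 at -0.09, PTGR1 at -0.08 and PTGER4 at 0.33, against 0.19, 0.05 and 0.08 by the brightest probe set. The number of member probe sets at least 1.5-fold higher, 1, became 0 with the stricter floor of 8.43, 0 at 2-fold and 2 at a lower threshold of 0.32 (log2). No share over all probe sets is given at these other settings, so nothing is read from the changed counts. The number of list genes at least 1.5-fold higher, 3, became 1 with averaged probe sets, 1 at 2-fold and 6 at the lower threshold. Over all 9196 genes that reached the floor, 26 were at least 1.5-fold higher and 27 lower. These counts became 15 and 17 with averaged probe sets, 129 and 158 with no floor, and 9 and 4 with the stricter floor. They became 3 and 3 at 2-fold, and 247 and 237 at the lower threshold. No paired analysis was possible because each treatment has 1 array.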
